A study of Mus musculus with 32 samples.

Results

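The genes described are Smarce1 and 8 other genes of the BAF chromatin remodelling complex, namely Smarca4, Smarca2, Smarcc1, Smarcc2, Smarcb1, Smarcd2, Arid1a and Arid1b. They were taken by gene symbol from each library's count table, and all 9 of the 55573 genes listed there were found and tested. RNA was sequenced from mouse cells of strain 129S5/SvEvBrd. The genotypes are named Smarce1-MD (here MD) and Smarce1-MD(R42A) (here R42A). The labels do not spell out either name. From general knowledge MD may be the mitotic degron of cyclin B1, fused to SMARCE1 as a tag, and R42A its inactive form. Both genotypes carry an MD form by name, and no cells without one were analysed here.

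The 4 groups were MD neural cells (clone labels 09 and 30), R42A neural cells (A04 and A10), MD embryonic stem cells (ESC; clones 09, 30, 45 and 47) and R42A ESC (A01, A02, A04 and A10). Neural cells had been kept for 6 days in a medium spelled RHA-B in the protocol and RHB-A in the treatment label, and ESC were untreated, with LIF and serum on gelatin. Each label stands for 1 clonal line, with 2 libraries per neural clone and 3 per ESC clone, 32 libraries in all, and the clone is the replicate. ESC of A04, A10, 09 and 30 form a first run of consecutive library numbers, the other ESC clones a second, and all neural libraries a further run, so stage and library run cannot be told apart. Total counts per library ran from 38699952 to 96424443.

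The labelled stages were checked with marker genes. Pou5f1, a pluripotency factor, averaged 8.58 CPM (counts scaled to library size and composition) in MD neural cells and 9.64 CPM in R42A neural cells, against 1111 CPM in MD ESC and 1372 CPM in R42A ESC. Cdh2, the neural cadherin, averaged 444 and 429 CPM in MD and R42A neural cells, against 12.9 and 4.12 CPM in MD and R42A ESC. Sox2, which both ESC and neural progenitors express, stayed between 204 and 300.2 CPM in all 4 groups. Not every marker followed the stages. The neuron marker Stmn2 was lower in neural cells than in ESC, at 164 against 230 CPM in MD and 57.1 against 290 CPM in R42A. So was the glial marker Gfap, near the floor, at 0.069 against 0.72 CPM in MD and 0.12 against 0.52 CPM in R42A.

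BAF complexes use ATP to move or evict nucleosomes, and each holds 1 ATPase, either SMARCA4 (BRG1) or SMARCA2 (BRM). SMARCC1 (BAF155) and SMARCC2 (BAF170) form its scaffold together with SMARCB1, SMARCE1 and an SMARCD protein, and ARID1A or ARID1B joins the canonical form of the complex. ESC are known for a form built on SMARCA4, SMARCC1 and ARID1A that holds little SMARCA2 or SMARCC2, and subunits are exchanged as neural cells develop.

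Since the paralog pairs of ATPases and scaffold proteins differed most in how their RNA changed between stages, the DNA just before a transcription start of each is shown. The sequences are from RefSeq (GRCm38.p6), where 8 of the 9 members matched. Each is given 5' to 3' and ends just before the RefSeq start of transcription or, for Smarca2 and Smarcc1, just before the first base of that window that GENCODE M21 annotates as exon of the gene. For Smarcc1 the window belongs to an internal start, since the gene as GENCODE M21 annotates it begins upstream of it, at base 110117708 of chromosome 9. Capitals mark GGGCGG, the core of the GC box, or CCGCCC where it lies on the other strand.
Smarca4 (chr9:21615919-21616168, plus strand): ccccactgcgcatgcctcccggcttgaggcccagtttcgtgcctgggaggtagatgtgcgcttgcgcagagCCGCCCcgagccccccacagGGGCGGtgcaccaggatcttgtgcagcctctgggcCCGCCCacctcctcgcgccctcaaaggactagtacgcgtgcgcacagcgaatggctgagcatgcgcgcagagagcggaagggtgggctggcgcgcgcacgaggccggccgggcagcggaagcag
Smarca2 (chr19:26604910-26605049, plus strand): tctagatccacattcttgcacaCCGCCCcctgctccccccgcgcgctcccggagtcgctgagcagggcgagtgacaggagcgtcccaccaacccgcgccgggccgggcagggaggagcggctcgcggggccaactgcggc
Smarcc1 (chr9:110131774-110131979, plus strand): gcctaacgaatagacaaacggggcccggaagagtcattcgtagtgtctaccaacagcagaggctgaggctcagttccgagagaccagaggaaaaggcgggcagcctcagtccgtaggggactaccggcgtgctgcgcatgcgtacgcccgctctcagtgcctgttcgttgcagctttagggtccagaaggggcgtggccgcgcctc
Smarcc2 (chr10:128458986-128459235, plus strand): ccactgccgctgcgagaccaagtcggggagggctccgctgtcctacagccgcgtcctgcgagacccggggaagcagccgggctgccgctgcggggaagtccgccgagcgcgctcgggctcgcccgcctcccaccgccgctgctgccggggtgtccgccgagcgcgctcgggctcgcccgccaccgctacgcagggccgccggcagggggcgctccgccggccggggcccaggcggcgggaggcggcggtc
Over the full 250 bases before the RefSeq start, GGGCGG was found on either strand 3 times for Smarca4, 2 times for Smarca2, 1 time for Smarcc1 and 0 times for Smarcc2. It was found in 32.7% of all 32851 RefSeq promoters of the same length. The GC content of these windows was 70.8% for Smarca4, 68.4% for Smarca2, 63.6% for Smarcc1 and 80.8% for Smarcc2, against a median of 52.4% over all promoters. The observed over expected ratio of CpG was 0.798, 0.962, 0.863 and 0.98 in the same order, against a median of 0.373. CCGGAA, the core of ETS sites, had 1 match in the Smarca2 window and 2 in that of Smarcc1, and was found in 12% of all promoters. Also searched on both strands were CCAAT (found in 33.8% of all promoters), the TATA box as TATAAA (12.4%), and the E-box forms CACGTG (6%), CAGCTG (13%) and CAGATG (14.4%), and these had 0 matches in the 4 windows.

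Neural cells were first compared with ESC of the same genotype, which asks how the makeup of BAF RNA differed between the stages. Smarca2, Smarcc2, Arid1b, Smarce1 and Smarca4 rose and Smarcd2 fell in neural cells of both genotypes, while Arid1a passed the test in neither. Smarcc1 passed in MD alone, where it fell, and Smarcb1 in R42A alone, where it rose, and the test of the difference between genotypes passed for Smarcc1 (adjusted p = 0.00822 in edgeR) but not for Smarcb1 (adjusted p = 0.501). In MD 5 of the 9 members rose and 2 fell, where 81.3% of all 23844 tested genes passed, 40.3% higher and 41.0% lower. In R42A 6 rose and 1 fell, where 78.3% of all genes passed, 37.9% higher and 40.4% lower. Genes with a Benjamini-Hochberg adjusted p under 0.05 in edgeR's quasi-likelihood test count as passing. The median log2 change of the 9 members was 0.64 in MD and 0.77 in R42A, against -0.02 and -0.06 over all tested genes. The tests use the 4 clone labels found at both stages, and fewer cells of a type and less RNA per cell cannot be told apart in these bulk samples.

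**Figure D1:**
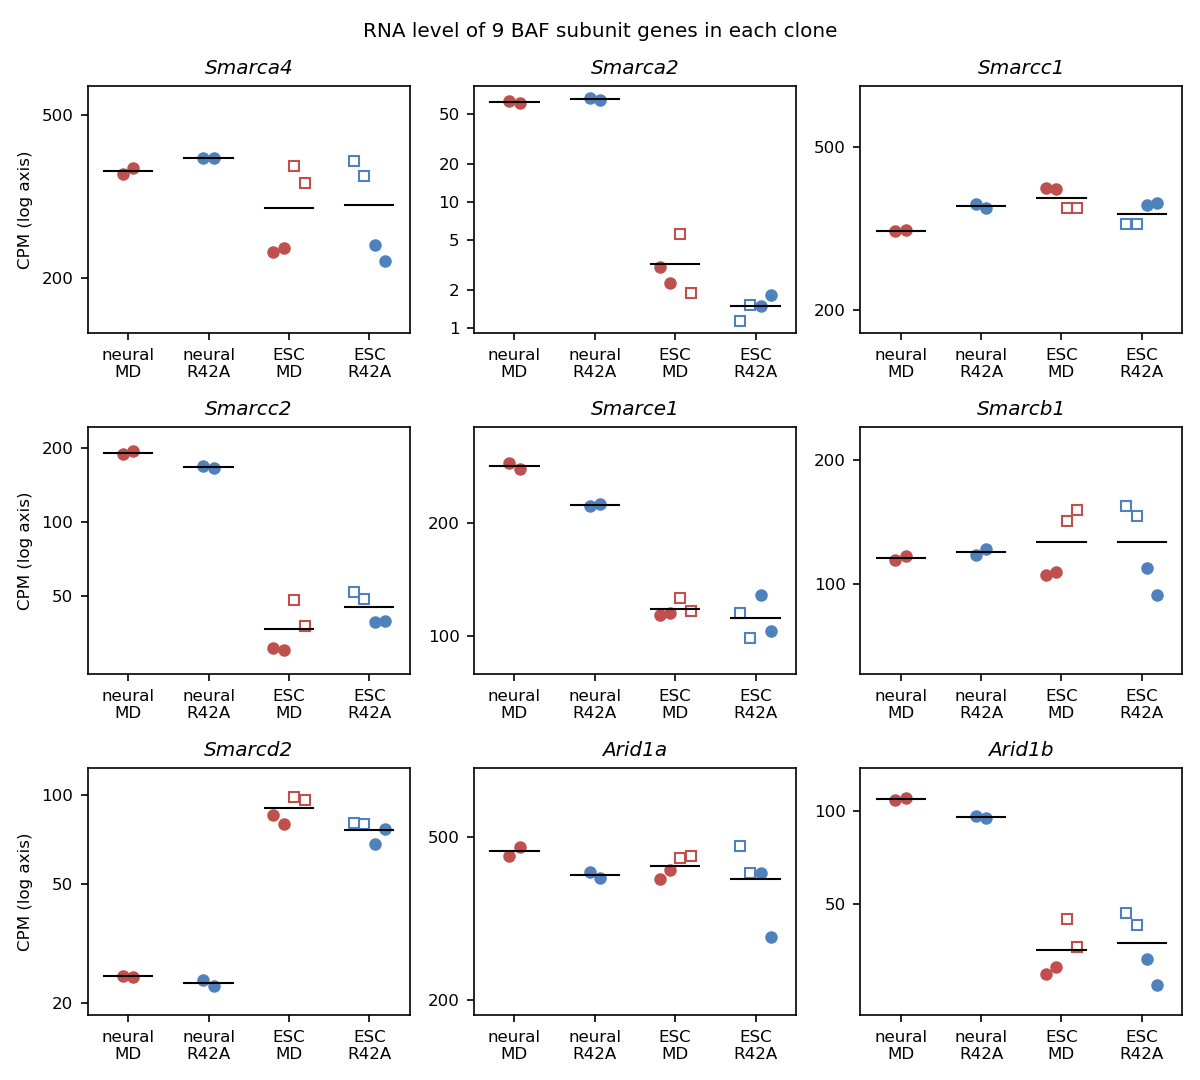
RNA level of the 9 members in each clone, in CPM on log axes that differ between panels, with neural MD, neural R42A, ESC MD and ESC R42A from left to right. Filled circles are clones of the neural run and of the first ESC run, open squares those of the second ESC run, and black lines are means over 2 neural or 4 ESC clones. Smarca2, Smarcc2 and Arid1b sit higher in every neural clone than in any ESC clone, and Smarcd2 lower.

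Of the ATPases, Smarca2 changed most. It had 63.4 and 61.3 CPM in the MD neural clones 09 and 30, against 3.06, 2.30, 5.55 and 1.9 CPM in the MD ESC clones 09, 30, 45 and 47. In R42A it had 66.9 and 64.5 CPM in the neural clones A04 and A10, against 1.15, 1.53, 1.5 and 1.85 CPM in the ESC clones A01, A02, A04 and A10. Every neural clone lay above every ESC clone in both genotypes. The change was 4.54 ± 0.16 on the log2 scale (SE; 23.2-fold; adjusted p = 3.05e-07 in edgeR) in MD and 5.29 ± 0.16 (39.2-fold; adjusted p = 2.21e-07) in R42A. The ESC levels rest on 2114 counts over the 12 MD libraries and 1102 over the 12 R42A libraries.

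Smarca4, the ATPase that ESC are known to use, was abundant at both stages. It had 358 and 370.5 CPM in the MD neural clones and 231, 237, 375 and 339.7 CPM in the MD ESC clones 09, 30, 45 and 47. It had 391 and 392 CPM in the R42A neural clones and 386, 355, 239.8 and 219.9 CPM in the R42A ESC clones A01, A02, A04 and A10. The neural clones lay above the first-run ESC clones with which the test compares them, while the second-run MD ESC clone 45 lay above both MD neural clones. The log2 change was 0.64 ± 0.05 (SE; adjusted p = 2.40e-05 in edgeR) in MD and 0.77 ± 0.05 (adjusted p = 9.96e-06) in R42A. The second ESC run differed from the first by nearly as much, at 0.64 ± 0.06 (adjusted p = 2.65e-05), and the part of the library run in the stage difference cannot be told apart.

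Of the scaffold pair, Smarcc2 was higher in neural cells by several fold. It had 188 and 194 CPM in the MD neural clones, against 30.8, 30.3, 48.5 and 38.0 CPM in the MD ESC clones. In R42A it had 168 and 165 CPM in the neural clones, against 52.2, 48.8, 39.4 and 39.9 CPM in the ESC clones. Neural and ESC clones did not overlap in either genotype. The log2 change was 2.64 ± 0.05 (SE; 6.25-fold; adjusted p = 2.98e-08 in edgeR) in MD and 2.07 ± 0.04 (4.21-fold; adjusted p = 5.52e-08) in R42A. Its paralog Smarcc1 had 311 and 313 CPM in MD neural clones and 398, 395, 355 and 355 CPM in MD ESC clones, with a log2 change of -0.35 ± 0.04 (adjusted p = 0.000153). In R42A Smarcc1 had 363 and 354 CPM in neural clones and 325, 324, 361 and 364 CPM in ESC clones. These overlap, and the log2 change was -0.02 ± 0.04 (adjusted p = 0.729). The most upstream annotated exon of Smarcc1, which lies before the window printed above, overlaps exons of Dhx30 by 123 bases on the opposite strand, and whether counting used strand is not given in the sources used here, so reads of that stretch are uncertain.

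Smarce1, the gene both genotypes are named for, encodes the HMG-box subunit BAF57 and lies on chromosome 11 (99209047 to 99231017, minus strand, mm10). If MD is a degron, which the labels do not say, it would act on the protein, and the RNA level was not used to check the labels. It had 289 and 279 CPM in the MD neural clones 09 and 30, against 114, 115, 127 and 117 CPM in the MD ESC clones 09, 30, 45 and 47. In R42A it had 223 and 225 CPM in the neural clones, against 116, 99.0, 129 and 103 CPM in the ESC clones A01, A02, A04 and A10. Every neural clone exceeded every ESC clone, and over single libraries the lowest neural value was 219 CPM and the highest ESC value 141 CPM, both in R42A. The log2 change was 1.31 ± 0.10 (SE; 2.48-fold; adjusted p = 1.12e-05 in edgeR) in MD and 0.95 ± 0.10 (1.93-fold; adjusted p = 6.67e-05) in R42A. Chromosome 11 as a whole moved the other way, with a median log2 change of -0.24 in MD and -0.28 in R42A over 1670 genes.

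Among the remaining core subunits, Smarcd2, which encodes BAF60B, was the only member lower in neural cells of both genotypes. It had 24.6 and 24.4 CPM in MD neural clones, against 86.0, 79.8, 98.8 and 96.5 CPM in MD ESC clones, with a log2 change of -1.76 ± 0.07 (SE; adjusted p = 6.78e-07 in edgeR). In R42A it had 23.9 and 22.7 CPM in neural clones, against 80.5, 80.1, 68.5 and 76.7 CPM in ESC clones, with a log2 change of -1.64 ± 0.07 (adjusted p = 1.09e-06). The lowest ESC clone was thus well above the highest neural one. Smarcb1, the subunit lost in rhabdoid tumours, had 114 and 117 CPM in MD neural clones and 117 and 121 CPM in R42A neural clones, against 105 to 151 CPM over the MD ESC clones and 94 to 154 CPM over the R42A ESC clones. Its log2 change was 0.12 ± 0.07 (adjusted p = 0.148) in MD and 0.23 ± 0.07 (adjusted p = 0.0207) in R42A. The R42A call rests on the first-run ESC clones, since the mean of all 4 R42A ESC clones was 126 CPM and that of the neural clones 119 CPM, and the call was lost without clone A10 (0.09; adjusted p = 0.148), 09 or 30 (0.23; adjusted p = 0.0752 each). In MD Smarcb1 passed without clone A04 (0.12; adjusted p = 0.0162) or A10 (0.11; adjusted p = 0.0189) and with single libraries and their number as a replicate block (0.22; adjusted p = 0.0103).

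Arid1b rose and Arid1a did not pass. Arid1b had 109 and 109.8 CPM in MD neural clones, against 29.7, 31.4, 44.8 and 36.5 CPM in MD ESC clones, a log2 change of 1.84 ± 0.09 (SE; adjusted p = 1.35e-06 in edgeR). In R42A it had 96.4 and 94.6 CPM in neural clones, against 46.9, 42.7, 33.2 and 27.5 CPM in ESC clones, a log2 change of 1.65 ± 0.09 (adjusted p = 2.51e-06). Arid1b did not overlap between the stages in either genotype. Arid1a had 450.2 and 473 CPM in MD neural clones and 409 and 396 CPM in R42A neural clones, against 394 to 448 CPM over the MD ESC clones and 285 to 474 CPM over the R42A ESC clones. Its log2 change was 0.19 ± 0.15 (adjusted p = 0.267) in MD and 0.21 ± 0.15 (adjusted p = 0.214) in R42A, with clone A10 the lowest of the ESC clones. Without clone A04 Arid1a passed in both genotypes (0.18 in MD and 0.47 in R42A), and without A10 in MD (0.18). The call depends on the setting, as the change was 0.37 (adjusted p = 0.0392) in MD and 0.35 (adjusted p = 0.0492) in R42A when each chromosome was scaled separately.

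**Figure D2:**
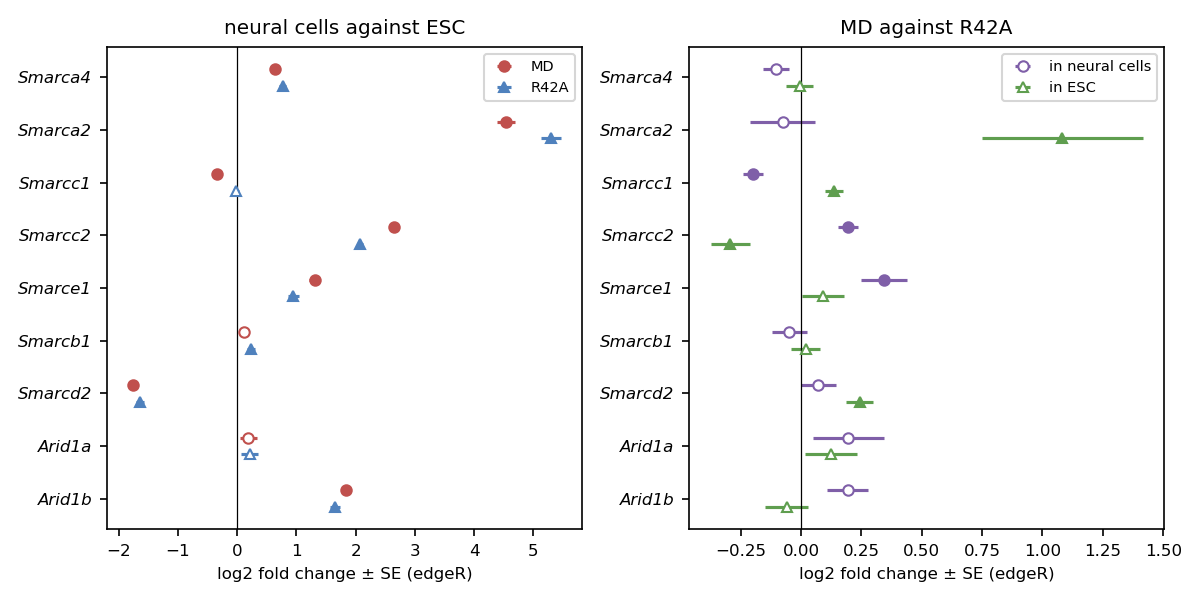
Log2 fold changes of the 9 members with SE from edgeR. The left panel shows neural cells against ESC in MD (circles) and R42A (triangles), and the right panel MD against R42A in neural cells (circles) and in ESC (triangles). Filled symbols have an adjusted p under 0.05. Smarca2 reaches 4.54 and 5.29 on the left, and Smarcc1 and Smarcc2 lie on opposite sides of 0 in neural cells and ESC on the right.

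The balance within each paralog pair was read as the log2 ratio of CPM within a clone, in which scaling cancels. Smarca2 over Smarca4 averaged -2.55 ± 0.07 in MD neural cells and -2.58 ± 0.04 in R42A neural cells (SD, n = 2 each), against -6.62 ± 0.63 in MD ESC and -7.62 ± 0.65 in R42A ESC (SD, n = 4 each). Smarcc2 over Smarcc1 averaged -0.71 ± 0.02 and -1.10 ± 0.01 in MD and R42A neural cells, against -3.37 ± 0.40 and -2.94 ± 0.30 in MD and R42A ESC. Arid1b over Arid1a averaged -2.08 ± 0.04 and -2.08 ± 0.01 in MD and R42A neural cells, against -3.60 ± 0.20 and -3.40 ± 0.16 in MD and R42A ESC. All 3 ratios were higher in every neural clone than in any ESC clone.

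Within the 4 clone labels found at both stages, Smarca2 over Smarca4 was higher in neural cells by 3.74 and 4.09 in MD clones 09 and 30 and by 4.78 and 4.29 in R42A clones A04 and A10. For Smarcc2 over Smarcc1 the difference was 2.97 and 3.01 in the MD clones and 2.08 and 2.10 in the R42A clones. The MD clones thus lay close together and above both R42A clones. For Arid1b over Arid1a it was 1.68 and 1.62 in the MD clones and 1.54 and 1.31 in the R42A clones. The mean differences over the 4 labels were 4.23, 2.54 and 1.54, each with p = 0.125 in a two-sided exact sign-flip test, which is the smallest p that 4 labels allow (adjusted p = 0.125 over the 3 ratios).

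**Figure D3:**
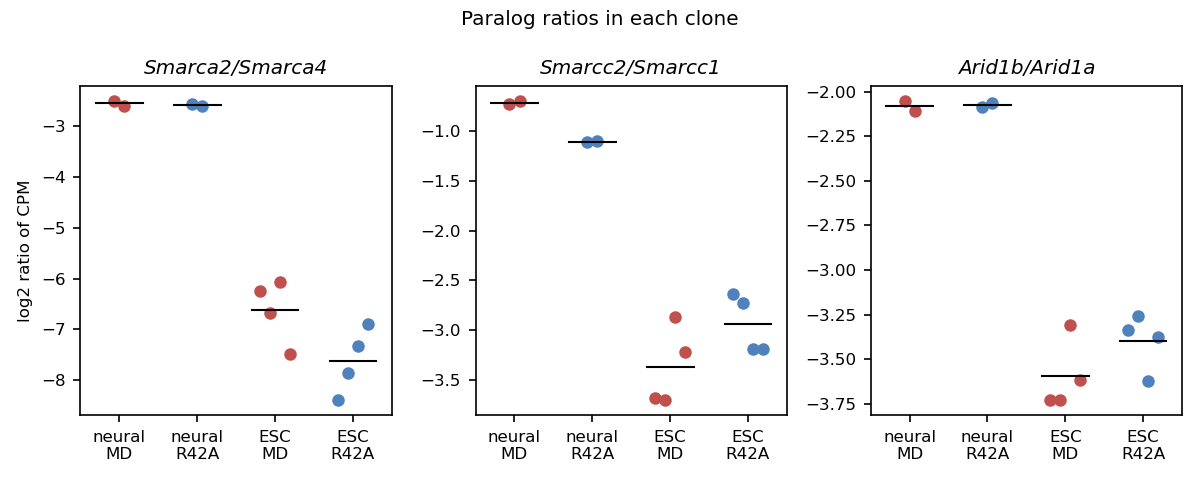
Log2 ratio of CPM of 3 paralog pairs in each clone, with neural MD, neural R42A, ESC MD and ESC R42A from left to right. Points are clones and black lines means over 2 neural or 4 ESC clones. All neural clones lie above all ESC clones, and for Smarcc2 over Smarcc1 the neural MD clones lie above the neural R42A clones.

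MD was next compared with R42A at each stage, which asks whether the BAF genes themselves differed between the genotypes. In neural cells Smarce1 and Smarcc2 were higher and Smarcc1 was lower in MD, 3 of the 9 members, where 33.7% of all 23844 tested genes passed, 17.4% higher and 16.3% lower. In ESC Smarca2, Smarcd2 and Smarcc1 were higher and Smarcc2 was lower in MD, 4 of the 9 members, where 36.5% of all 21567 tested genes passed, 17.1% higher and 19.4% lower. Both shares of members are near the share of all genes. Beyond Smarca2 in ESC, no passing change exceeded 0.35 on the log2 scale. The median size of the log2 change was 0.19 over the members and 0.37 over all genes in neural cells, and 0.13 and 0.28 in ESC. Since these comparisons and those between stages share clones, their values are given side by side only.

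In neural cells Smarcc2 had 188 and 194 CPM in the MD clones, against 168 and 165 CPM in the R42A clones, a log2 change of 0.19 ± 0.04 (SE; adjusted p = 0.0124 in edgeR). Smarcc1 had 311 and 313 CPM in the MD clones, against 363 and 354 CPM in the R42A clones, a log2 change of -0.20 ± 0.04 (adjusted p = 0.00943). The pair moved in opposite directions. The groups overlapped for neither gene, but this does not set the pair apart. With 2 clones a group they overlapped for no other member either, including those that did not pass. Smarce1 was higher in MD, with a log2 change of 0.34 ± 0.09 (adjusted p = 0.0293). There were only 2 clones a group. All 3 calls were lost without MD clone 09 or 30 and kept without R42A clone A04 or A10. Each of these fits leaves 1 neural clone in a group, so none can show the spread of that group. Over these fits the log2 changes ran from 0.32 to 0.37 for Smarce1, from -0.21 to -0.17 for Smarcc1 and from 0.18 to 0.21 for Smarcc2. Smarcc2 also missed the threshold with single libraries and no replicate block (0.20; adjusted p = 0.0716).

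The other 6 members did not pass in neural cells, with log2 changes of -0.10 ± 0.05 for Smarca4 (adjusted p = 0.185), -0.08 ± 0.13 for Smarca2 (0.711), -0.05 ± 0.07 for Smarcb1 (0.658), 0.07 ± 0.07 for Smarcd2 (0.490), 0.20 ± 0.15 for Arid1a (0.352) and 0.19 ± 0.09 for Arid1b (0.132) in edgeR. Fitted on the 4 neural sums alone, Smarca4, Arid1a and Arid1b passed too, and the ARID genes also without clone A04 or A10.

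Markers of other cell types also differed between the neural groups. All 8 neuron markers were higher in MD, with a summed level of 1995 to 2013 CPM in MD clones and 742 to 761 CPM in R42A clones. All 6 endoderm markers were lower in MD, with sums of 89.3 to 98.1 CPM in MD clones and 201 to 209 CPM in R42A clones. The 7 mesenchyme markers summed to 160.4 to 168 CPM in MD clones and 311 to 315 CPM in R42A clones, and they were split in direction. Of the 7, 4 were lower in MD, among them the smooth muscle actin gene Acta2, which averaged 3.78 CPM in MD and 79.9 CPM in R42A. The collagen genes Col1a1, Col1a2 and Col3a1 were higher in MD, at 27.6, 28.6 and 36.1 CPM against 6.78, 6.50 and 9.67 CPM in R42A. The 8 progenitor markers summed to 1350 to 1356 CPM in MD and 1469 to 1475 CPM in R42A. The 6 glial markers summed to 41.7 to 44.2 CPM in MD and 47.4 to 48.0 CPM in R42A, with S100b at 0 in both. Their part in the differences of BAF genes was not tested.

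In ESC Smarca2 was low but higher in MD. Its 4 MD clones, at 3.06, 2.30, 5.55 and 1.9 CPM, all lay above its 4 R42A clones, at 1.15, 1.53, 1.5 and 1.85 CPM, though clones 47 and A10 nearly met. The log2 change was 1.08 ± 0.33 (SE; 2.12-fold; adjusted p = 0.0326 in edgeR). Clone 45 carried much of the size, as the change was 0.62 without it, and the call was lost without clone 09, A01, A02 or A04 (adjusted p from 0.0686 to 0.0965) and without a filter on low counts (1.07; adjusted p = 0.0987). Within the first run the change was 0.70 (adjusted p = 0.138) and within the second 1.53 (adjusted p = 0.0997).

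The scaffold pair changed little in ESC, in the opposite sense to neural cells. Smarcc1 had 398, 395, 355 and 355 CPM in the MD clones, against 325, 324, 361 and 364 CPM in the R42A clones, a log2 change of 0.14 ± 0.04 (SE; adjusted p = 0.0230 in edgeR). Smarcc2 had 30.8, 30.3, 48.5 and 38.0 CPM in the MD clones, against 52.2, 48.8, 39.4 and 39.9 CPM in the R42A clones, a log2 change of -0.29 ± 0.08 (adjusted p = 0.0214). The groups overlapped over all clones for both genes, and within each library run, with 2 clones a genotype, they did not. In the second run Smarcc2 nearly met, at 48.5 CPM in MD clone 45 and 48.8 CPM in R42A clone A02, and single libraries of these clones overlapped. Within the first run the log2 change was 0.15 (adjusted p = 0.184) for Smarcc1 and -0.35 (adjusted p = 0.0562) for Smarcc2. Within the second run it was 0.19 (adjusted p = 0.0958) and -0.17 (adjusted p = 0.363). The Smarcc1 call was lost without any 1 clone but A10 (adjusted p from 0.0501 to 0.0723) and the Smarcc2 call without clone 09, 30, 47 or A01 (adjusted p from 0.0539 to 0.0714). Smarcc1 also missed the threshold without a filter on low counts (0.13; adjusted p = 0.107) and in the 4-group fit (0.13; adjusted p = 0.0581).

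Smarcd2 had 86.0, 79.8, 98.8 and 96.5 CPM in the MD ESC clones, against 80.5, 80.1, 68.5 and 76.7 CPM in the R42A ESC clones, a log2 change of 0.24 ± 0.06 (SE; adjusted p = 0.00894 in edgeR). Only MD clone 30 fell within the R42A range. Within the first run its change was 0.21 (adjusted p = 0.200) and within the second 0.34 (adjusted p = 0.0174), and in the 4-group fit it was 0.19 (adjusted p = 0.0942). The other 5 members did not pass in ESC, with log2 changes of 0.09 ± 0.09 for Smarce1 (adjusted p = 0.438), -0.01 ± 0.06 for Smarca4 (0.946), 0.02 ± 0.06 for Smarcb1 (0.828), 0.13 ± 0.11 for Arid1a (0.398) and -0.06 ± 0.09 for Arid1b (0.644). Without the library run term in the fit all 4 calls in ESC were lost, with adjusted p of 0.0631 for Smarca2, 0.148 for Smarcd2, 0.365 for Smarcc1 and 0.336 for Smarcc2. Marker sums of other cell types differed between the ESC groups too. The 7 mesenchyme markers summed to 62.8 to 111 CPM in MD ESC clones and 10.7 to 32.9 CPM in R42A ESC clones, without overlap. Of these Thy1 (3.29 against 6.96 CPM) and Pdgfra (2.18 against 2.30 CPM) were lower in MD, and the others higher. The 8 neural progenitor markers summed to 72.8 to 132 CPM in MD and 35.7 to 52.4 CPM in R42A, also without overlap. Nes, the highest of them, averaged 60.3 CPM in MD and 18.4 CPM in R42A. Sox1 was lower in MD (4.60 against 12.1 CPM), and the others were higher. The 8 ESC markers summed to 4839 to 5690 CPM (median 5038) in MD and 5630 to 7116 CPM (median 6427) in R42A, and of them Sox2 alone was higher in MD (300.2 against 279 CPM). The 8 neuron markers summed to 313 to 403 CPM in MD and 340.5 to 519 CPM in R42A, the 6 endoderm markers to 9.55 to 24.4 and 6.37 to 40.3 CPM, and the 6 glial markers to 4.68 to 6.21 and 2.95 to 4.67 CPM. The neuron, endoderm and glial lists were each split in direction. The part of these cell types in the ESC differences of BAF genes was not tested.

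The values of Smarce1 and Smarcd2 turn on their chromosome. Both lie on chromosome 11, whose 1670 tested genes had a median log2 change of 0.48 between MD and R42A in neural cells, and whose 1593 tested genes had a median of 0.45 in ESC, with 82.5% of them higher in MD. Against the mean of the ESC clones, the chromosome's median stood between 0.17 and 0.30 in each MD ESC clone and between -0.35 and -0.15 in each R42A ESC clone. Within 1 Mb on either side of Smarce1, 35 of 44 tested genes were higher in MD ESC, with a median of 0.35. With each chromosome scaled separately, the log2 change of Smarce1 was -0.10 (adjusted p = 0.580 in edgeR) in neural cells and -0.37 (adjusted p = 0.0219) in ESC. That of Smarcd2 was then -0.37 (adjusted p = 0.00319) in neural cells and -0.22 (adjusted p = 0.00755) in ESC, so that the direction of both genes in MD depends on the scaling. No cause of the shift of the chromosome was tested.

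**Figure D4:**
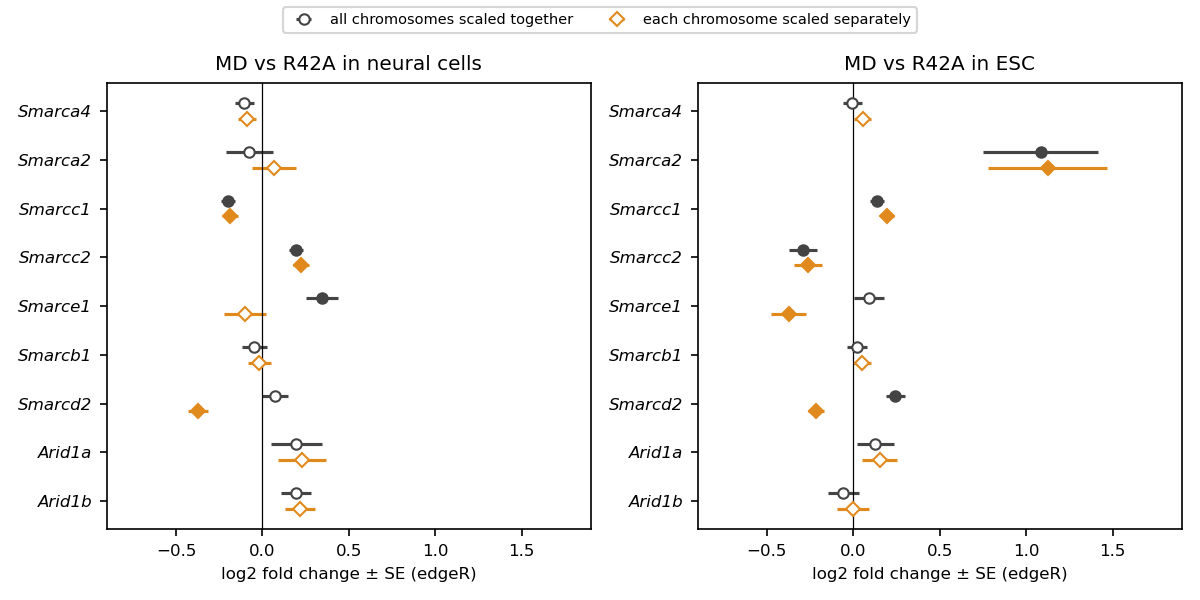
Log2 fold change with SE (edgeR) of MD against R42A in neural cells (left) and ESC (right) for the 9 members, with all chromosomes scaled together (circles) and with each chromosome scaled separately (diamonds). Filled symbols have an adjusted p under 0.05. Smarce1 and Smarcd2, on chromosome 11, cross 0 in both panels, while Smarcc1 and Smarcc2 keep their side.

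A processed pseudogene of Smarce1, Smarce1-ps1, lies on chromosome 8 (41657593 to 41658669, mm10). All 1077 of its bases align to the Smarce1 transcript with 98.3% identity and 18 mismatches, so reads of the gene and its copy may be split between them. Smarce1-ps1 had 13.2 and 12.3 CPM in MD neural clones, against 9.55 and 8.85 CPM in R42A neural clones, a log2 change of 0.47 ± 0.09 (SE; adjusted p = 0.00825 in edgeR), which did not pass without clone 09 (0.41; adjusted p = 0.164) or 30 (0.53; adjusted p = 0.103). In ESC it had 6.41, 6.62, 6.52 and 6.38 CPM in MD clones, against 4.12, 4.02, 4.58 and 4.45 CPM in R42A clones, a log2 change of 0.60 ± 0.09 (adjusted p = 0.00121), which did not pass in the first run alone (0.55; adjusted p = 0.0787). The groups overlapped at neither stage. Chromosome 8 moved the other way, with a median log2 change of -0.28 in neural cells and -0.45 in ESC. The entry held 4352 counts against 78984 for Smarce1 in MD ESC, and 3095 against 80049 in R42A ESC.

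Whether the difference between MD and R42A itself differed between the stages was tested as an interaction. Of the 9 members, Smarcc2 had a more positive difference in neural cells (0.57 ± 0.06 on the log2 scale, SE; adjusted p = 0.00145 in edgeR). Smarcc1 (-0.33 ± 0.06; adjusted p = 0.00822) and Smarca2 (-0.76 ± 0.20; adjusted p = 0.0349) had a more negative one. Over all genes 22.9% passed, 11.9% with a more positive and 11.1% with a more negative difference. Smarce1 did not pass (0.36 ± 0.13; adjusted p = 0.0995), though it did without clone A10 (0.51; adjusted p = 0.000134) and without a filter on low counts (0.37; adjusted p = 0.0440). Without MD clone 09 or 30 none of the 3 passed, with adjusted p from 0.0762 to 0.244, and without A04 Smarca2 did not (0.0823), nor did it with each chromosome scaled separately (0.0571).

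Between the runs of ESC libraries, which hold different clones of both genotypes, Smarca4, Smarcb1, Arid1b, Smarcc2 and Smarcd2 were higher and Smarcc1 was lower in the second, 6 of the 9 members, where 44.1% of all genes passed, 24.8% higher and 19.3% lower. Smarcb1 differed by 0.51 ± 0.06 on the log2 scale (SE; adjusted p = 0.000148 in edgeR) and Arid1b by 0.48 ± 0.09 (adjusted p = 0.00237). Smarce1 did not pass (-0.02 ± 0.09; adjusted p = 0.879). The count rests in part on single clones. Smarcd2 (0.18 ± 0.06; adjusted p = 0.0241) did not pass without clone 09, 30, 45, 47 or A04 (adjusted p from 0.0547 to 0.0878), and Arid1a (0.24 ± 0.11; adjusted p = 0.109) passed without A04 (0.32; adjusted p = 0.0418) and with single libraries (0.23; adjusted p = 0.0101 without and 0.00492 with a replicate block). For Smarca4, Smarcb1 and Arid1b these differences exceed in size those between the genotypes in ESC. The values were closer, but still larger between runs, for Smarcc2 (0.42 ± 0.08 between runs, -0.29 ± 0.08 between genotypes) and Smarcc1 (-0.17 ± 0.04 and 0.14 ± 0.04). Arid1a passed neither test (0.24 ± 0.11 and 0.13 ± 0.11). Smarcd2, Smarca2 and Smarce1 differed less between runs than between genotypes.

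Levels were also compared between members, per kilobase of the union of each gene's exons. In MD neural cells the order was Smarca4 (56.3 CPM per kb), Smarce1 (42.7), Arid1a (40.2), Smarcc1 (39.9), Smarcc2 (34.4), Smarcb1 (14.6), Arid1b (8.66), Smarcd2 (6.83) and Smarca2 (4.37), and only Arid1a and Smarcc1 overlapped among neighbours over the 2 clones. In R42A neural cells it was Smarca4 (60.5 CPM per kb), Smarcc1 (45.8), Arid1a (35.1), Smarce1 (33.7), Smarcc2 (30.1), Smarcb1 (15.1), Arid1b (7.58), Smarcd2 (6.49) and Smarca2 (4.61), with no overlap between neighbours. In MD ESC the levels were 48.0 ± 3.07 CPM per kb for Smarcc1, 45.7 ± 11.2 for Smarca4, 37.1 ± 2.19 for Arid1a, 25.2 ± 2.49 for Smarcd2, 17.8 ± 0.867 for Smarce1, 16 ± 3.01 for Smarcb1, 6.65 ± 1.53 for Smarcc2, 2.83 ± 0.539 for Arid1b and 0.225 ± 0.115 for Smarca2 (SD, n = 4). Smarcc1 and Smarca4, Smarca4 and Arid1a, and Smarce1 and Smarcb1 overlapped over the MD ESC clones. R42A ESC had the same order except that Smarca4 (46.4 ± 12.8 CPM per kb) stood before Smarcc1 (43.8 ± 2.84). The order depends on the length used. Per kilobase of the principal transcript, 1660 bases for Smarcb1 against a union of 7930, Smarcb1 came first in MD and R42A ESC (76.2 and 76.0 CPM per kb) and Smarce1 first in MD and R42A neural cells (97.4 and 76.7 CPM per kb).

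Likeness of profile was measured as the mean absolute difference of log2 CPM over the 12 clone-by-stage sums, each gene centred on its mean. Of 21461 genes the 5 nearest to Smarce1 were Pigk (0.0538), Camsap1 (0.0805), Zfp943 (0.0819), St7l (0.0878) and Ptprg (0.0932), where the median over all genes was 0.766. Pigk averaged 59.3 CPM in MD and 44.8 CPM in R42A neural cells, against 25.5 CPM in MD and 22.6 CPM in R42A ESC. Over the 32 single libraries Pigk and Camsap1 were again the nearest 2, but the other 3 left the nearest 5. There St7l ranked 6, Ptprg 8 and Zfp943 42. Among the members, Arid1b was nearest to Smarce1 (0.268) and Smarca2 farthest (1.68). Of the 36 pairs of members, Smarcb1 and Arid1a were the closest (0.163) and Smarca2 and Smarcd2 the farthest apart (2.99).

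The 20 other SWI/SNF subunit genes give the setting. In neural cells against ESC 15 rose and 4 fell in MD, where 40.3% of all tested genes rose and 41.0% fell, and 14 rose and 4 fell in R42A, where 37.9% of all genes rose and 40.4% fell. Actl6b, the actin-related subunit of neuronal BAF, rose by 8.42 ± 0.33 on the log2 scale (SE; adjusted p = 4.94e-07 in edgeR) in MD and by 4.76 ± 0.29 (adjusted p = 4.53e-06) in R42A. Bicral, a subunit of the non-canonical complex, fell by 2.32 ± 0.11 (adjusted p = 1.18e-06) in MD and fell by 2.90 ± 0.11 (adjusted p = 5.58e-07) in R42A. Bicra, its paralog, rose by 3.15 ± 0.12 (adjusted p = 3.94e-07) in MD and by 2.88 ± 0.12 (adjusted p = 6.23e-07) in R42A. It was also higher in the second ESC run than in the first, by 1.42 ± 0.10 (adjusted p = 6.80e-06 in edgeR). The stage test uses first-run ESC clones, and the part of the library run in the rise cannot be told apart. Dpf3 rose by 4.35 ± 0.24 (adjusted p = 2.50e-06) in MD and by 2.60 ± 0.23 (adjusted p = 3.07e-05) in R42A. Actb changed by -1.16 ± 0.04 (adjusted p = 3.63e-07) in MD and by -0.21 ± 0.04 (adjusted p = 0.00276) in R42A. For Ss18 the change was -0.60 ± 0.05 (adjusted p = 1.40e-05) in MD and -0.42 ± 0.05 (adjusted p = 0.000105) in R42A.

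Between MD and R42A, 7 of the 20 were higher and 4 lower in MD neural cells. In ESC 3 of 19 tested (all but Actl6b) were higher and 4 lower. Of all genes 33.7% passed in neural cells and 36.5% in ESC, and 7 of 19 in ESC is near that share. In neural cells Actl6b was higher in MD by 2.50 ± 0.22 on the log2 scale (SE; adjusted p = 0.000347 in edgeR) and Dpf3 by 1.46 ± 0.21 (adjusted p = 0.00214). Actb (-0.58 ± 0.04; adjusted p = 0.000183) and Brd7 (-0.50 ± 0.11; adjusted p = 0.0131) were lower in MD. Without clone 09 or 30 neither Dpf3 (adjusted p = 0.0728 and 0.0675) nor Brd7 (adjusted p = 0.175 and 0.142) passed. In ESC Smarcd3 (-1.34 ± 0.12; adjusted p = 0.000121) and Brd7 (-0.58 ± 0.08; adjusted p = 0.000751) were lower in MD, and Phf10 (0.38 ± 0.07; adjusted p = 0.00341) and Ss18l1 (0.36 ± 0.09; adjusted p = 0.0155) higher. Brd7 lies on chromosome 8, whose median was also lower in MD at both stages. With each chromosome scaled separately its log2 change was -0.17 (adjusted p = 0.0394) in neural cells and -0.11 (adjusted p = 0.0784) in ESC, and it did not pass in the first ESC run alone. Phf10 and Ss18l1 passed neither without the library run term nor in the first run alone, and Ss18l1 did not pass without clone A02 or in the 4-group fit.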

How the data were processed

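Total RNA of 32 libraries was extracted with TRIzol, and libraries were prepared with a KAPA Hyper Prep kit, as the labels' protocols give. The authors deposited expected counts per gene, 1 table per library, without normalisation. Tools listed in the submitters' processing notes are RSEM 1.3.0, STAR 2.7.1a, Trim Galore 0.60 and DESeq2, with the build mm10, and counting by strand is not given in the sources used here. Entries for 92 ERCC spike-ins with a total of 0 were left out.

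Expected counts were rounded and summed per clone and stage. Tests were edgeR 4.0.16 quasi-likelihood F-tests (R 4.3.3; robust, TMM, filterByExpr with a minimum count of 10, Benjamini-Hochberg adjustment over all tested genes, threshold 0.05), tested on simulated data. The ESC fit used 8 clone sums with library run as covariate. The other comparisons came from 1 fit of 4 groups on the 8 sums of the 4 clone labels found at both stages. CPM use the TMM library sizes of the 12 sums, and log2 CPM a prior count of 2. Ratio tests were exact permutation tests. Libraries of 1 clone were never identical (28 pairs, chi-square per gene 2.99 or more). Numbered libraries of a clone may be technical repeats, and p-values measure the spread between clone sums.

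Alternatives were DESeq2 1.42.0, limma voom 3.58.1, RLE factors, 2 other filters, scaling by chromosome, single libraries, clones left out, batches and blocks. The same clone label at both stages was taken to mark the same cell line, and the paired ratio differences rest on this. Deviations of its ESC and neural sums correlated by 0.11 in MD and -0.09 in R42A, so the counts themselves do not show it. Named genes are the 9 members, the 2 largest and 2 smallest called changes of the other SWI/SNF genes in each comparison of stages or genotypes, and the 5 nearest to Smarce1. For the interaction and the ESC runs the other SWI/SNF genes were not listed. Members and lists were chosen with earlier results of these data known.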

Additional observations from a re-analysis of the deposited data

Results flagged for a closer look

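The difference between MD and R42A differed between neural cells and ESC, by the interaction test in edgeR, for 3 of the 9 members. For Smarcc2 it was more positive in neural cells by 0.57 on the log2 scale (adjusted p = 0.00145), higher in both neural MD clones than in both R42A clones and lower in both first-run MD ESC clones than in both first-run R42A ESC clones. For Smarcc1 it was more negative by -0.33 (adjusted p = 0.00822), with the opposite directions in the same clones. For Smarca2 it was more negative by -0.76 (adjusted p = 0.0349), where both first-run MD ESC clones lay above both first-run R42A ESC clones. In neural cells both MD clones lay below both R42A clones for Smarca2, but the clones of the genotypes overlapped there for no member. The neural difference of Smarca2 itself did not pass (-0.08 ± 0.13, SE; adjusted p = 0.711 in edgeR), and its single libraries overlapped between the genotypes. Over all genes 22.9% passed this test. In no ESC group of 4 clones did a single clone of any member stand apart by Dixon's test at the 95% level.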

How the results depend on the processing

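Of the members' log2 changes in the 6 comparisons under all alternatives, 676 kept their direction and their side of the threshold, 53 lost the threshold, 30 gained it and 33 changed sign; the cause was not tested. The number of genes called between MD and R42A in ESC (7862) was 3084 without the library run term, 1769 in the first run alone and 4878 in the second alone. In neural cells (8030) it was 13643 with the neural sums alone and 1538 to 9967 with 1 clone left out. For the difference of the MD effect (5472) it was 77 to 8759 with 1 clone left out.

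With each chromosome scaled separately, the sign changed in ESC for Smarce1 (-0.37), Smarcd2 (-0.22) and Smarca4 (0.054), between ESC runs for Smarca2 (-0.076), in neural cells for Smarce1 (-0.10), Smarcd2 (-0.37) and Smarca2 (0.069), for Smarcc1 in R42A between stages (0.0033) and for Arid1a in the interaction (0.020). Of these, Smarce1 in ESC and Smarcd2 at both stages passed. In ESC Smarca4, near 0, turned to 0.0065 with DESeq2 and with RLE factors, 0.033 with the CPM filter, 0.020 with single libraries, 0.018 with their library number as replicate block, 0.049 and 0.0020 in the first and second run alone, and 0.027 in the 4-group fit, and ran from -0.029 to 0.031 with 1 clone left out. In ESC the 4-group fit also turned Smarce1 (-0.013) and Arid1b (0.0097), and the first run alone Arid1b (0.031). With 1 clone left out the log2 change ran from -0.11 to 0.013 for Arid1b in ESC, from -0.060 to 0.068 for Smarce1 and -0.40 to 0.26 for Smarca2 between ESC runs, from -0.043 to 0.0024 for Smarcc1 and -0.0063 to 0.47 for Arid1a between stages in R42A, and, in the interaction, from -0.25 to 0.020 for Smarcb1, -0.29 to 0.18 for Arid1a and -0.14 to 0.022 for Smarce1-ps1.

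The clone label as a replicate block changed no call of a member, nor any count by over 1.5 times. Libraries of 1 number in different clones deviated together in part. Their correlation was above 0.1 in 26 of 36 ESC pairs and 5 of 6 neural clone pairs (range -0.809 to 0.903), and of the 10 ESC pairs not above it 7 held clone A04 and 3 clone 47. Since not every pair was above 0.1, the numbers were not taken as pairing. With single libraries, 10315 genes were called in ESC with the block, and the block moved no count of calls by over 1.5 times. The paralog ratios kept their direction under every alternative run. Their smallest possible p in the main tests was 0.0556 within ESC and 0.125 between stages, so that their side of the threshold says nothing of stability. Where leaving out a clone left 1 neural clone in a group, that clone was assumed to vary like the other groups. The Smarca2 level in ESC rests on few counts, and 2 neural clones a genotype limit what can be called there.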
